A study of Mus musculus with 4 samples.

Results

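RYBP regions at CpG-poor promoters were examined in FLK1-positive mesoderm. They were the regions of the deposited merged peak list that came within 500 bp of a protein-coding start site and whose own sequence held fewer than 2 CpG dinucleotides per 100 bp. Regions of 4000 bp or more and regions at divergent promoters, where coding genes on opposite strands start head to head within 1000 bp, were left out. The rule found 296 members among 22409 merged regions. The same limits left 9375 promoter regions with 2 or more CpG per 100 bp, called CpG-rich here, so that the members made up 3.06% of the 9671 promoter regions.

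The series holds 4 samples, which are 2 RYBP ChIP samples and 2 inputs, all from wild-type embryoid bodies of C57Bl/6 X Sv129 background. Embryoid bodies are aggregates of differentiating embryonic stem cells, and FLK1 is the receptor by which the mesoderm with blood potential is sorted. The design text describes cells without PDGFRa, but it speaks of an SCL ChIP, and the methods describe selection on FLK1 only, so that the PDGFRa status of these cells is uncertain. The labels give day 3.75 of differentiation, and the methods a day that is a little later. The antibody was raised against DEDAF, another name of RYBP. The inputs were not analysed here. The cell type could not be checked against markers, since the files hold peaks and no expression values. Peaks were called in each ChIP replicate separately, 14794 in replicate 1 and 18154 in replicate 2, and the files themselves hold no read totals. By the reporting summary, the replicate with fewer peaks was the more deeply sequenced.

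RYBP belongs to non-canonical Polycomb repressive complex 1, in which it stimulates the RING1B enzyme that ubiquitinates histone H2A. Polycomb complexes are known above all at CpG islands, which hold unmethylated CpG-dense promoter DNA and are read by the CXXC domain of the KDM2B subunit in some of these complexes. Vertebrate promoters outside CpG islands mostly belong to tissue-restricted genes, are often methylated and more often carry a TATA box. RYBP also binds the transcription factor YY1, and E2F6 occurs in related complexes, so that DNA-binding factors are a further known route of recruitment.

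The sequences below illustrate the regions compared. They are the central 300 bases of 5 of the 6 members with the highest fold enrichment in their weaker replicate, followed by the same stretch of the CpG-rich promoter region that ranked highest by the same measure. All are read 5′ to 3′ on the strand of the nearest coding start in build mm9, and capitals mark each CpG. Their positions are chr15:82864456-82864755, minus strand for Nfam1, chr7:77511228-77511527, minus strand for Nr2f2, and chr7:51561497-51561796, minus strand for Clec11a. The next ones lie at chr11:100406084-100406383, plus strand for Ttc25 and chr9:91266666-91266965, plus strand for Zic4. The CpG-rich example lies at chr8:88224621-88224920, minus strand, at the start of Neto2, which encodes an accessory subunit of kainate receptors.
Nfam1: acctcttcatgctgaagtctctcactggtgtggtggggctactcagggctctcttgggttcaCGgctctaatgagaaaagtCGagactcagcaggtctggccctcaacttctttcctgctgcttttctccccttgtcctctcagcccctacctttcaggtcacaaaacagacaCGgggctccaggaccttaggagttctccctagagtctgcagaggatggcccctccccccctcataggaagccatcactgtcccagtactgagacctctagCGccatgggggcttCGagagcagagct
Nr2f2: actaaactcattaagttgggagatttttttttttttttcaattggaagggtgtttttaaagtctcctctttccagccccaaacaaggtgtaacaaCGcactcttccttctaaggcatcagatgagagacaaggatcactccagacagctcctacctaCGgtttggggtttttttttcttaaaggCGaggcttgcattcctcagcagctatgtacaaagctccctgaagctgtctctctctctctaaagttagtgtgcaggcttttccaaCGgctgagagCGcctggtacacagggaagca
Clec11a: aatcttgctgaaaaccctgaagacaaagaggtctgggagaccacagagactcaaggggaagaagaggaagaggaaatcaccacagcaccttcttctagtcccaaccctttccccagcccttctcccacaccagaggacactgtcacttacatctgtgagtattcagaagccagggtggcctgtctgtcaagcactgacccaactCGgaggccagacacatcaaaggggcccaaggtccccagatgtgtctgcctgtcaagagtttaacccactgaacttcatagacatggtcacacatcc
Ttc25: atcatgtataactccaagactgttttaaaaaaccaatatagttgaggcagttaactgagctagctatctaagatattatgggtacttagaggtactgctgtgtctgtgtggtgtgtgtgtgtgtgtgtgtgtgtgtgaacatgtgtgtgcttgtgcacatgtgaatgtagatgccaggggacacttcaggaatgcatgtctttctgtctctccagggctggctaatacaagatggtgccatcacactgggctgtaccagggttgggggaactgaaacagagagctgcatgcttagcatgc
Zic4: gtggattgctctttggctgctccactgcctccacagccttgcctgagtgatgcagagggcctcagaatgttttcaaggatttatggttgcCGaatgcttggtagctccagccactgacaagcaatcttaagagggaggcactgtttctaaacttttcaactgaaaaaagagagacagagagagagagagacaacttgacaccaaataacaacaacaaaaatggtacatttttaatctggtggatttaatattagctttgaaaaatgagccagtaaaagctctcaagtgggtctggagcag
Neto2: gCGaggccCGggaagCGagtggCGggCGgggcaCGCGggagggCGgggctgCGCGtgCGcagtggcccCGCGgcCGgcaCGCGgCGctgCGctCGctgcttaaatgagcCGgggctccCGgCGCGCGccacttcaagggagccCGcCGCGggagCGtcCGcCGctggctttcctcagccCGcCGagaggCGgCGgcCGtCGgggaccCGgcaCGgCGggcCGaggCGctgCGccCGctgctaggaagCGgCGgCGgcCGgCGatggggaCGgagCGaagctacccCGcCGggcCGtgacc
The 5 members held 5, 5, 1, 0 and 1 CpG in these 300 bases, in the order printed. The Neto2 stretch held 53 CpG, with a GC content of 80.3%. Among the members the GC content of the stretch ran from 43.3% in Zic4 to 56.3% in Nfam1.

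Members were rarely found in both replicates. A region counted as found in a replicate when it overlapped a peak of that replicate by at least 1 bp. Both replicates contained 28 of the 296 members, a share of 9.46% (exact 95% interval 6.38% to 13.4%). The share was 44.2% over all merged regions and 67.6% over the promoter regions that passed the same limits. Of the CpG-rich promoter regions, 6512 were found in both, or 69.5% (exact 95% interval 68.5% to 70.4%). The members thus lay 60 percentage points below the CpG-rich regions. A further 126 members came from replicate 1 only and 142 from replicate 2 only. Replicate 1 contained 52.0% of the members and 74.8% of the CpG-rich regions, and replicate 2 contained 57.4% and 94.6%. With 1 group of 2 ChIP samples there is no test over samples, and the intervals cover counting error over regions, which are not independent replicates. The share in both changed by over 1.5 times under 6 alternatives, to 5.99% under 1.5 CpG, 27.7% under 3 CpG, 23.5% with CpG counted around the start site, 4.48% where −log10 q had to reach 2, 5.69% where fold enrichment had to reach 3, and 3.38% where 50% of the region had to be covered. In the alternatives run, the difference from the CpG-rich share lay between -62.7 and -43.0 percentage points. A single replicate list in place of the merged one held 178 members without replicate 1 and 190 without replicate 2. The merged list held 170 members found in replicate 2 and 154 found in replicate 1. CpG was counted in the merged region, so a CpG-poor peak joined to a CpG-denser peak of the other replicate is not a member. How far the low share in both replicates comes from this was not tested.

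Sharing was higher at higher CpG density up to 6 CpG per 100 bp. Promoter regions with less than 1 CpG per 100 bp numbered 60, of which 2 were found in both replicates, or 3.33%. Between 1 and 2 CpG the share was 11.02% of 236 regions. Just past the threshold, between 2 and 3 CpG, it was 41.8% of 380 regions, and between 3 and 4 CpG 63.8% of 712. The highest share was 78.4%, between 5 and 6 CpG. Above that density the share was lower, at 59.0% of the 1214 regions with 11 or more CpG. The regions of every bin come from the same 2 ChIP samples.

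**Figure D1:**
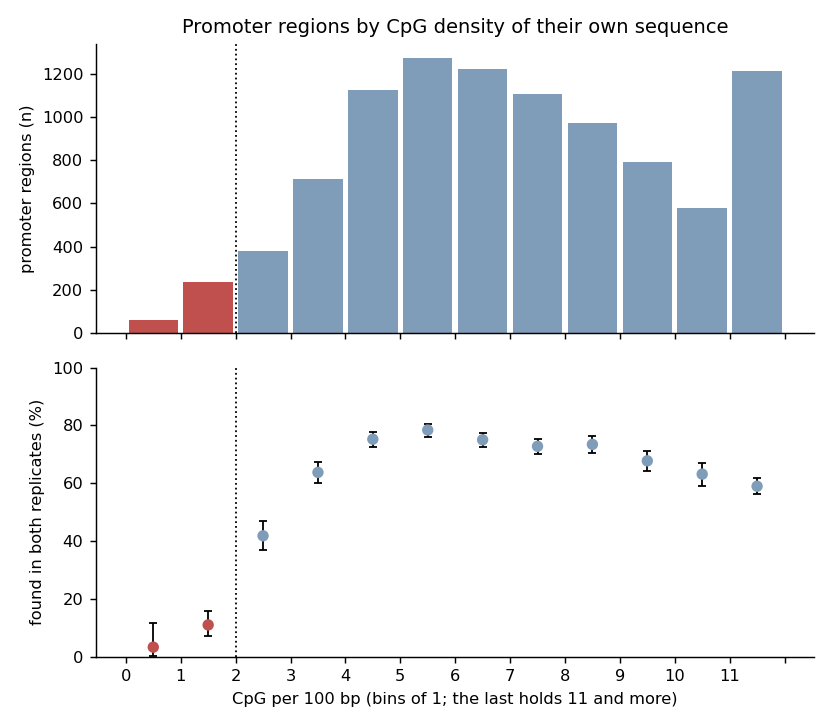
Promoter regions in bins of CpG density (CpG per 100 bp, x axis), by number (upper panel) and by share found in both replicates in percent (lower panel), with CpG-poor members in red, CpG-rich regions in blue and exact 95% intervals as bars. The members fill the 2 bins left of the dotted line, at 3.33% and 11.02%, while the next bin stands at 41.8%.

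Signal was weaker at the members. Fold enrichment is the ratio of the ChIP pile-up to the local background that the authors' peak caller gives for a peak, and a region was given its highest peak. In replicate 1 the median was 3.003 over the 154 members found there (range 1.85 to 3.90) and 3.51 over 7017 CpG-rich regions. In replicate 2 it was 3.25 over 170 members (range 1.40 to 4.33) and 3.89 over 8870 CpG-rich regions. The difference was -0.50 in replicate 1 and -0.64 in replicate 2, with a mean of -0.57 ± 0.094 (SD, n = 2). It had the same direction in both, but an SD from 2 values measures the spread poorly. Most members also came from only 1 of the replicates. A fold enrichment of at least 3.5 was reached by 7 of 154 members in replicate 1 and 39 of 170 in replicate 2. Among CpG-rich regions it was reached by 3536 of 7017 and 6250 of 8870. The same held for significance. A −log10 q of at least 2 was reached by 22 members in replicate 1, or 14.3%, against 76.8% of CpG-rich regions, and by 48 members in replicate 2, or 28.2%, against 83.6%. These values cover called peaks alone, and among peaks of −log10 q of at least 2 the differences in median fold enrichment were -0.28 and -0.41.

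**Figure D2:**
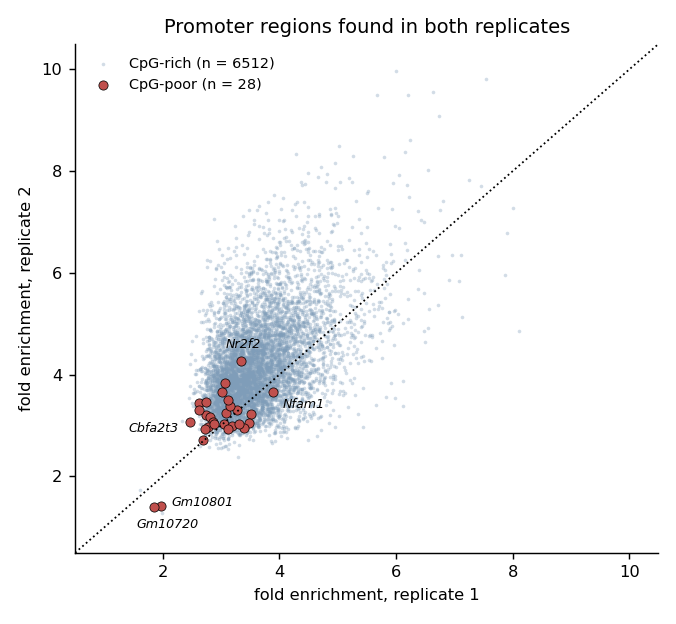
Fold enrichment in replicate 1 (x axis) and replicate 2 (y axis), linear ratios, of promoter regions found in both replicates, with 28 CpG-poor members in red and 6512 CpG-rich regions in blue, and equal values on the dotted line. The members lie in the lower left of the CpG-rich cloud, between 1.85 and 3.90 in replicate 1 and between 1.40 and 4.27 in replicate 2.

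Weak signal was set beside sharing by comparing regions of like significance. Among replicate 1 regions with a −log10 q of 1 to 1.5, 10 of 86 members were also found in replicate 2, or 11.6% (exact 95% interval 5.72% to 20.3%), against 73.7% of 604 CpG-rich regions. At 1.5 to 2 the shares were 21.7% of 46 members and 85.2% of CpG-rich regions. At 2 to 3 they were 4 of 16 members, a thin bin, and 93.3%. Members of replicate 1 were therefore matched less often in each of these bins, with intervals that did not overlap. As above, a CpG-poor peak joined to a CpG-denser peak of the other replicate is not a member. Matched peaks can thus be missing from the shares of members in every bin, and how many was not tested. Among replicate 2 regions at 1 to 1.5, 13.6% of 66 members (exact 95% interval 6.43% to 24.3%) and 30.8% of 451 CpG-rich regions were found in replicate 1. At 2 to 3 they were 4 of 40 members (exact 95% interval 2.79% to 23.7%) and 60.7%. From 3 upward the bins were thin, with 4 of 6 members matched in replicate 1 (22.3% to 95.7%) and 4 of 8 in replicate 2 (15.7% to 84.3%), against 98.2% and 87.1% of CpG-rich regions.

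Width and GC content differed as well. The median width was 681 bp for members and 1033 bp for CpG-rich regions, a difference of -352 bp that was -201.5 bp without replicate 1 and -298 bp without replicate 2. A merged region that joins peaks of both replicates is wide by construction. Of the 101 members under 500 bp, 0 were found in both replicates (exact 95% interval up to 3.59%), against 19.9% of CpG-rich regions of that width. Between 1000 and 2000 bp the shares were 30.2% of 53 members (exact 95% interval 18.3% to 44.3%) and 89.5%. Members had a median GC content of 53.6%, against 62.6%. Between 55% and 60% GC, where both classes have many regions, 16 of 105 members were found in both replicates, or 15.2% (exact 95% interval 8.97% to 23.6%), against 75.5% of 2437 CpG-rich regions.

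**Figure D3:**
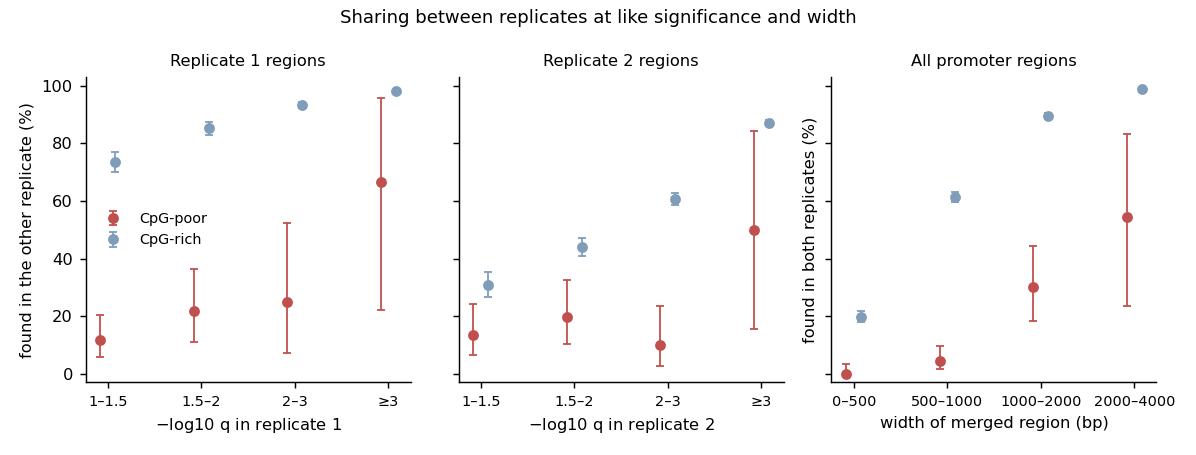
Share found in the other replicate by −log10 q in replicate 1 (left) and replicate 2 (middle), and share found in both by width in bp (right), in percent, for CpG-poor members (red) and CpG-rich promoter regions (blue) with exact 95% intervals as bars. Members lie below CpG-rich regions in every bin, for example at 11.6% against 73.7% in the lowest bin of replicate 1 and the intervals of the 2 classes overlap in no bin.

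Members sat less squarely on start sites. A coding start lay inside 134 members, or 45.3%, against 80.4% of CpG-rich regions. The others only reached into the window of 500 bp. The midpoint of CpG-rich regions lay at a median of 144 bp downstream of the nearest coding start, with 71.7% of midpoints downstream. Members had a median of -6 bp, with 49.3% of midpoints downstream and quartiles of -394 bp and 382 bp. Among the 28 members found in both replicates, 21 contained a start, or 75%, against 88.6% of CpG-rich regions found in both. Members were also narrower, and a region had only to reach the window to count. How far these positions come from width and from the rule was not tested. Coding sequence was overlapped by 41.6% of members and 66.9% of CpG-rich regions.

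**Figure D4:**
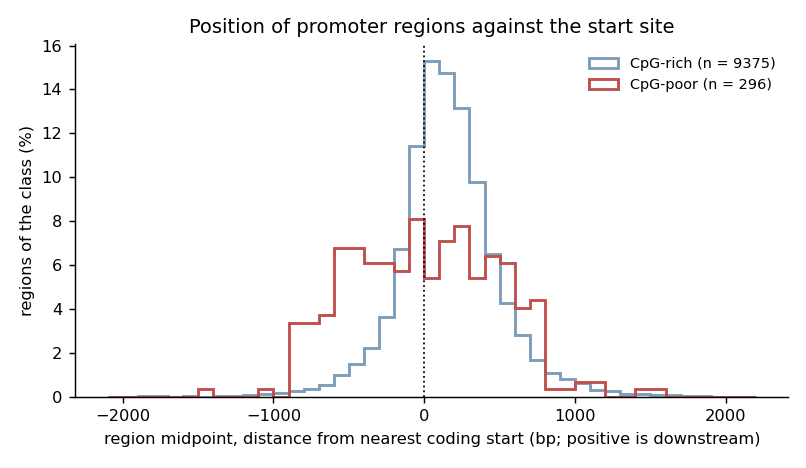
Distance of the region midpoint from the nearest coding start in bp (x axis, positive downstream) as a share of the regions of each class in percent (y axis, bins of 100 bp), for 296 CpG-poor members (red) and 9375 CpG-rich regions (blue). The CpG-rich regions peak just downstream of the start, and the members spread over both sides of it.

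Many members stood beside other RYBP regions. Another merged region lay within 10 kb of 204 members, or 68.9%, against 33.4% of CpG-rich promoter regions and 50.6% of all merged regions. Within 1 kb it was 75 members, or 25.3%, against 6.85% and 12.2%. The median distance to the next merged region was 3581.5 bp for members, 23747 bp for CpG-rich promoter regions and 9691 bp for all merged regions. For 172 members, or 58.1%, a region of at least 2 CpG per 100 bp was itself within 10 kb, against 24.1% of CpG-rich promoter regions and 40.5% of all merged regions. Of the 28 members found in both replicates, 25 had another region within 10 kb. The 1000 bp around the nearest start held 2 or more CpG per 100 bp at 101 members, and at 107 members a gene named by the region also carried a CpG-rich promoter region. Counted separately, 107 members belonged to genes with no start of 2 or more CpG per 100 bp, and 9 of these were found in both replicates.

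Seen from the start sites, RYBP was rare where CpG was rare. Of 16413 coding starts with fewer than 2 CpG per 100 bp around them, 625 had a merged region in the window. This is 3.81% (exact 95% interval 3.52% to 4.11%). Merged regions of any CpG density were counted, but those at or above the width limit of the rule were left out. For CpG-rich starts the share was 68.5% of 25618. Regions found in both replicates lay at 234 CpG-poor starts, or 1.43%, and at 47.7% of CpG-rich starts. A member lay at 276 of the occupied CpG-poor starts, and the others were reached by other merged regions below the width limit. These other regions include those at divergent promoters. Counted by gene, 462 of 10875 genes with a CpG-poor start were occupied there, or 4.25%. The share of starts was 2.75% without replicate 1 and 1.99% without replicate 2, and 1.85% at −log10 q of at least 2.

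The 15 strongest members found in both replicates were ranked by their weaker replicate. Several encode transcription factors. Nr2f2 encodes COUP-TFII, an orphan nuclear receptor known for venous identity, and its region on chromosome 7 from 77509704 to 77513052 spanned 3349 bp. Replicate 1 gave a fold enrichment of 3.34 and replicate 2 of 4.27, the highest replicate 2 value among the 28. Its start window held 1.30 CpG per 100 bp, another start of the gene 7.79, and the next merged region was 908 bp away. Pou2f3, a POU factor of chemosensory tuft cells, had 3.16 and 3.38. Zic4, a zinc finger factor of the developing nervous system, had 3.13 and 3.499 over 1417 bp with 8 CpG, or 0.565 per 100 bp, the lowest density among members in both replicates. Hoxc4 (chromosome 15, 102849351 to 102850702) had 3.49 and 3.05 and the third lowest density, 1.11. In these 4 genes the higher value was in replicate 2 for 3 and in replicate 1 for Hoxc4, and another merged region lay 908 to 4081 bp away.

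Among the other genes, Nfam1, an immune receptor that signals through an ITAM motif, ranked first with 3.90 and 3.66 (chromosome 15, 82863778 to 82865434). Its region ended upstream of the start, with the midpoint at -870 bp, and the next merged region was 20683 bp away. Clec11a, a secreted growth factor of bone and blood progenitors, had 3.27 and 3.31, and 45.5% of its region was coding sequence. Hspa12b, an endothelial relative of the HSP70 chaperones, had 3.07 and 3.83 (chromosome 2, 130952281 to 130954807). Slc45a3, a membrane transporter, had 3.02 and 3.65, Ttyh1, a membrane protein of neural cells, 3.18 and 2.999, and Rin1, an effector of RAS, 3.39 and 2.96. None of these 6 genes reached a fold enrichment of 4 in either replicate.

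Ttc25, a protein of motile cilia, had 3.52 and 3.22 and the largest −log10 q of the 15 in replicate 1, at 4.12. Qprt, an enzyme of NAD synthesis, had 3.31 and 3.04. Mogat2, an acyltransferase of fat absorption, had 3.12 and 2.93. Tmem146, a sperm membrane protein, had 3.05 and 3.02, and its region was the most isolated, with the next one 39089 bp away. The region at 2310046K01Rik had 3.09 and 3.25. The other 13 members found in both replicates had a lower smaller value, between 1.40 and 2.89. Replicate 2 gave the higher value in 18 of the 28, or 64.3%, against 77.5% of CpG-rich regions found in both.

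Blood and erythroid genes, taken from a gene list, carried 4 members. Cbfa2t3, which encodes the corepressor ETO2, was the only gene of the lineage lists with a member in both replicates. Its region on chromosome 8 from 125221736 to 125224750 covered the outermost start, spanned 3015 bp with 1.43 CpG per 100 bp, and reached 2.72 in replicate 1 and 2.94 in replicate 2. A start of Cbfa2t3 elsewhere held 13.6 CpG per 100 bp. Gfi1b, a repressor of the erythroid and megakaryocytic lineages, had 3.65 in replicate 2 alone, 93 bp from the next merged region. Ikzf1, a zinc finger factor of lymphoid cells, had 3.85 in replicate 2 alone over 249 bp. Hba-a1, an adult alpha-globin gene, had 2.86 in replicate 1 alone, with a −log10 q of 1.19, and this sequence has 1 near-identical copy elsewhere in mm9. Of the 35 blood and erythroid genes in the annotation, 25 had a CpG-poor start, 4 carried a member and 12 a CpG-rich promoter region. The share with a member was 11.4%, against 1.31% of all coding genes, from 4 genes of which 1 had it in both replicates.

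Endothelial genes had 3 members, each in a single replicate. Eng, a TGF-beta co-receptor, had 2.83 in replicate 1. Robo4, a guidance receptor of vessels, had 3.26 in replicate 2, and Egfl7, a factor secreted by endothelium, had 3.16 in replicate 2. These were 3 of 22 genes, against 10 with a CpG-rich region. Msgn1, a factor of paraxial mesoderm, had 3.02 in replicate 1 and was the only member among 19 paraxial and skeletal muscle genes. No member lay at any of the 24 cardiac, 22 germline, 13 pluripotency or 26 Polycomb subunit genes, of which 4, 7, 5 and 21 had a CpG-rich promoter region. Over all 22219 coding gene symbols, 290 had a member, or 1.31%, and 9192 had a CpG-rich region, or 41.4%. At a member share of 1.31%, lists of 13 to 26 genes are too small for the lack of a member to be a result.

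Gene families were read against the share of all genes with a member, 1.31%. Of 1113 olfactory receptor genes, 1096 had a CpG-poor start and 1 carried a member, Olfr71, with 3.41 in replicate 2 alone. None of 327 vomeronasal receptor genes, 97 keratin genes, 98 Cyp genes, 60 Serpin genes or 41 beta-defensin genes had a member, while 1, 6, 15, 3 and 0 of them had a CpG-rich region. For families of 41 to 98 genes a count of 0 is near that background and is no result about the family. Histone genes had no CpG-poor start in 67 genes and no member. Of 39 Hox genes, 7 had a CpG-poor start and 2 had a member (5.13%), Hoxc4 and Hoxd4, the latter with 3.48 in replicate 1 alone. Slc transporter genes carried 4 members in 353 (1.13%), Zfp zinc finger genes 3 in 367, ribosomal protein genes 1 in 144, where the region is shared with the start of Flt3l, and protocadherins 1 in 36 (2.78%).

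Fold enrichment did not set members of both replicates above those of a single replicate. The highest in replicate 1 alone were Lrmp, a membrane protein of lymphoid cells (3.88, over 192 bp), Upk2, a uroplakin of the bladder lining (3.75), and 4930511I11Rik (3.65). The highest in replicate 2 alone were Engase, a glycosidase (4.33), Acer1, an epidermal ceramidase (4.31), and Ptgir, the prostacyclin receptor (4.13). The median was 3.002 over the 126 members of replicate 1 alone and 3.26 over the 142 of replicate 2 alone, against 3.03 and 3.12 for the 28 found in both. For CpG-rich regions in both replicates and in a single replicate the medians were 3.54 against 3.16 in replicate 1. In replicate 2 they were 4.08 against 3.46. The median −log10 q of members in both replicates was higher, at 1.62 against 1.42 in replicate 1 and 1.71 against 1.59 in replicate 2. A −log10 q of at least 2 was reached by 28.6% of them against 11.1% in replicate 1, and by 28.6% against 28.2% in replicate 2. Members in both replicates were wider, with a median of 1535.5 bp against 638.5 bp. The same held for CpG-rich regions, at 1356 bp against 489 bp.

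The widest members were those of G430095P16Rik (3670 bp, 2.89 and 3.03), Aatk, a neural kinase (3539 bp, 3.17 in replicate 2 alone), and Nr2f2. The lowest densities in both replicates belonged to Zic4, Myo15b, a myosin gene (0.91 CpG per 100 bp, 2.87 and 3.07), and Hoxc4. At the threshold of 2 CpG per 100 bp, the last members found in both replicates were Hspa12b at 1.98 and Podnl1, which encodes a matrix proteoglycan, at 1.96, with a fold enrichment of 2.63 and 3.30. Just outside lay Asap3, a GTPase-activating protein, at 2.00 with 3.74 and 3.82, and Cntn2, a neural adhesion molecule, at 2.01 with 2.77 and 3.36.

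Short sequence motifs were counted on both strands in the central 300 bp of each region and, for comparison, in the 300 bp from 250 before to 50 after all coding starts. The TATA box, TATAAA, was found in 9.12% of members, 2.61% of CpG-rich regions, 11.4% of all coding starts and 21.1% of CpG-poor starts. The GATA motif AGATAA was found in 8.78% of members, 3.30% of CpG-rich regions, 9.44% of all starts and 16.8% of CpG-poor starts. The bHLH E-box CANNTG was found in 81.1% of members, 62.1% of CpG-rich regions, 69.2% of all starts and 81.1% of CpG-poor starts. In the same order, the ETS motif AGGAAG was found in 44.9%, 27.5%, 34.0% and 39.7%. The core of the YY1 site, CCATNTT, was present in 16.2% of members, 10.01% of CpG-rich regions, 15.9% of all starts and 19.2% of CpG-poor starts. The CCAAT box stood at 33.1%, 20.9%, 35.7% and 37.0%. The T-box motif TCACACC was found in 7.43%, 2.77%, 3.68% and 4.46%. Among the 28 members found in both replicates it had 0 matches, as had TATAAA and the motifs CACGTG and GCGGGAA given below. For motifs this rare, 28 regions are too few for 0 matches to be a result. Members were thus nearer to CpG-poor starts than to CpG-rich regions for the bHLH, ETS, YY1, CCAAT and T-box motifs. For the TATA box and the GATA motif they lay between the 2. The windows of regions are centred on midpoints and those of starts are placed by the start. A motif with a fixed place at the start, such as the TATA box, is therefore not compared at like positions. The GC box GGGCGG (9.12% of members, 59.2% of CpG-rich regions and 44.3% of all starts), the E2F motif GCGGGAA (3.04%, 9.31% and 6.03%) and the E-box CACGTG (1.35%, 7.13% and 7.67%), which is also a CANNTG, contain a CpG and are tied to the rule that chose the members. In the printed stretches, Ttc25 and Zic4 each hold 1 CCATNTT, and Neto2 holds 2 GGGCGG. A match describes the letters in this window and does not show a bound site.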

How the data were processed

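RYBP ChIP-seq peaks of 2 replicates were analysed. Per the submitters' processing notes and the study's methods, reads were aligned to mm9 with Bowtie 1.1.2b, duplicates were removed, and peaks were called per replicate with MACS2 2.0.10 under its broad option. The authors' peak lists give a fold enrichment (a linear ratio), p- and q-values as −log10, and a score. The deposited merged list holds positions and no values. A rebuilt union of both lists, with replicate 2 starts moved by 1 bp, was identical to it in 22409 regions and differed in 0, so positions are certain to 1 bp. No column of per-sample values was left unmapped.

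Starts were the 46015 starts of protein-coding transcripts in GENCODE for NCBIM37, which is mm9. Of 10953 regions within 500 bp of a start, 787 were at divergent pairs and 495 more were 4000 bp or wider. CpG was counted in the whole region. Exact binomial intervals have a level of 95%. Near-identical copies were sought with minimap2 2.31-r1302 (at least 90% identity over 50% of the region). Scripts ran under Python 3.11.15 with scipy 1.17.1 and matplotlib 3.10.9, and the rule was tested on simulated data. The files hold no read totals. The reporting summary of the study lists them, with more mapped reads for the replicate with fewer peaks, and they were not used here. The alternatives were other start sites, windows, CpG thresholds, divergent distances, peak thresholds, overlaps and single replicates. Named genes were the 15 strongest members in both replicates, the 3 strongest of each replicate alone, the 3 widest, the 3 lowest in CpG found in both, the 2 nearest to the threshold on each side and members of the gene lists. Members and lists were chosen with earlier results of these data known. The sequence of 1 of the 6 strongest members is not reported here.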

Additional observations from a re-analysis of the deposited data

How the results depend on the processing

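The difference in sharing, the lower fold enrichment and the smaller width of members kept their direction under each alternative run. The difference in sharing between members and CpG-rich regions moved to -43.0 percentage points under 3 CpG per 100 bp, -45.7 with CpG counted around the start, and -48.1 with 50% of the region covered. The difference in median fold enrichment moved to -0.28 in replicate 1 and -0.41 in replicate 2 at −log10 q of at least 2, and to -0.54 in replicate 2 with CpG counted around the start. From single-replicate lists it was -0.50 without replicate 2 and -0.65 without replicate 1. The share of CpG-poor starts with a merged region was 3.43% for outermost gene starts, 2.83% and 6.202% with windows of 250 and 1000 bp, 2.36% and 6.85% under 1.5 and under 3 CpG, 1.85% where −log10 q had to reach 2, and 3.31% where fold enrichment had to reach 3. It ran from 1.99% to 2.75% when either replicate was left out. The share of members in both replicates has no value with a single replicate. Leaving out the regions of fold enrichment under 2, chosen after seeing the data, gave 26 of 294 members in both replicates, or 8.84%. No paired analysis was possible because there was 1 group with peaks, and the inputs, which carry the same replicate numbers, were not analysed here. The cause was not tested for any of these shifts. The share of repeat-masked bases was not run, as the genome sequence carries no masking. The peak lists hold no read counts, so no region could be compared at matched depth.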

Other observations

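The following members were singled out after their values were seen. Gm10801 (chromosome 2, 98502388 to 98504260) and Gm10720 (chromosome 9, 3015198 to 3016416) are predicted coding genes whose regions were found in both replicates with the lowest fold enrichment of all members, 1.96 and 1.42 for the former and 1.85 and 1.40 for the latter. Their −log10 q in replicate 1 was nevertheless 17.4 and 8.71. Gm10721, close to Gm10720 on chromosome 9, was found in replicate 1 alone, at 2.10, with a −log10 q of 8.96. GC content was 36.5%, 34.5% and 34.8% in these regions, against a median of 53.6% over the members. Near-identical copies elsewhere, at least 90% identical over 50% of the region, were found for 8 of the 296 members, with 32 copies for Gm10720. The other 288, Gm10801 and Gm10721 among them, had none by that limit. Shorter or more diverged copies were not counted.

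Members were spread unevenly over the chromosomes. The X chromosome carried 0 members and 159 CpG-rich promoter regions, and 0.369% of its 814 CpG-poor starts were occupied. On the autosomes the share of CpG-poor starts with a region ran from 1.20% on chromosome 14 to 7.13% on chromosome 15. Chromosome 7 held the most members, 39, or 13.2% of them, against 7.39% of CpG-rich regions, and 6 of its members were found in both replicates. It also held the most CpG-poor starts, 1804 of 16413. Of these starts 4.43% were occupied, against 3.81% over all chromosomes.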
